A study of Mus musculus with 6 samples.

Results

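The genes of glycolysis and of the pentose phosphate pathway were followed in mouse osteoclast precursors that received RANKL, with or without a leaf extract (LE) of the shrub Abeliophyllum distichum. The 33 genes were taken by symbol from the 24940 genes of the deposited expression table, and all 33 were found in it. They comprise 24 genes of glycolysis, from glucose uptake to lactate export, 7 genes of the pentose phosphate pathway, and 2 regulators, Pdk1 and Hif1a. Glycolysis splits glucose into pyruvate, which is reduced to lactate or enters the mitochondria. The pentose phosphate pathway leaves glycolysis at glucose 6-phosphate. Its oxidative arm (G6pdx, Pgls and Pgd) yields NADPH, the reductant of lipid synthesis, glutathione and the NADPH oxidase, and its non-oxidative arm (Taldo1, Tkt, Rpia and Rpe) returns sugars to glycolysis or yields ribose for nucleotides. Macrophages use NADPH for the oxidative burst, whereas osteoclasts, the bone-resorbing cells formed from them, are rich in mitochondria.

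Bone marrow-derived macrophages (BMMs), which are osteoclast precursors grown from marrow with M-CSF, were cultured for 3 days in all groups. The group -R received M-CSF at 30 ng/mL alone, the group +R received M-CSF and RANKL at 100 ng/mL, and the group R+LE received both with LE at 10 μg/mL. Each group held 2 libraries of total RNA, and no culture carried a genetic alteration that the labels name. The labels give C57BL/6 mice of 6 to 8 weeks as the source, whereas the methods of the study name the ICR strain, and nothing states whether the 2 libraries of a group came from separate animals. The p-values therefore measure the spread between these libraries, which may be technical.

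Values are reads per kilobase of transcript, scaled to the mapped reads of a library (RPKM), so levels can be compared between genes. Libraries held 29390210 to 34846375 mapped reads, of which 74.2% to 80.7% lay on genes. The sum of the 9 osteoclast markers was 43.4 to 45 RPKM without RANKL, 1894 to 2161 with RANKL and 340 to 393 with RANKL and LE, whereas that of the 6 macrophage markers was 1395 to 1502, 792 to 902 and 703 to 855 RPKM. The macrophage markers did not move as 1 group. Of the 6, 1 was higher and 5 lower in +R than in -R, and 4 were higher and 2 lower in R+LE than in +R. Cd68, the most abundant, had means of 771, 445 and 336 RPKM in -R, +R and R+LE, and Itgam 70.5, 90.2 and 104. The 7 neutrophil markers summed to between 15.6 and 17.3 RPKM in -R and to at most 2.52 elsewhere, while the 3 lists of T cell, B cell and erythroid markers stayed below 1 RPKM in sum. The 5 stromal markers summed to 14.4 to 16.2 RPKM in -R, 10.4 to 14.5 in +R and 7.49 to 8.55 in R+LE. Replicate 1 stood above replicate 2 in 24 of 24 glycolysis genes in +R and in 21 of 24 in R+LE, against 12 of 24 in -R. For the pentose phosphate genes it did so in 4 of 7, 7 of 7 and 6 of 7. The share of reads on genes was also higher in replicate 1 (80.7% against 76.3% with RANKL, 80.5% against 74.2% with LE). The median log2 level over the -R mean was 0.36 and 0.10 for glycolysis genes in +R, and 0.53 and 0.19 in R+LE. Over all genes tested it was 0.075 and 0.013, and 0.045 and -0.066. In RNA from whole cultures, fewer cells of a type and less RNA per cell cannot be told apart.

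With RANKL, the transcripts of the pentose phosphate enzymes G6pdx, Pgd and Taldo1 fell while most abundant glycolysis transcripts did not pass the test, and with LE added these 3 transcripts rose, to levels whose difference from -R did not pass with all libraries. In glycolysis, Hk3, Slc2a3, Pfkfb3 and Pfkfb4 fell with RANKL and Aldoc, Ldhb and Slc16a1 rose. With LE added, Slc2a3 and Hk3 rose and Ldhb fell. A gene passed where its adjusted p was below 0.05 in limma over 11595 genes, and it is said to have been called where it also changed at least 2-fold. Fold changes are on the scale of log2(RPKM + 0.5), which understates those of low genes. Without the filter on low values, 15 of the 38 member changes that passed over the 3 comparisons no longer did, among them those of Slc2a3, Hk3, Taldo1 and Ldhb with LE, while G6pdx and Pgd still passed.

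The oxidative arm begins with G6pdx (chromosome X, 74409486 to 74429161, minus strand, mm10), the glucose 6-phosphate dehydrogenase that commits glucose to the pathway. Its level was 129 and 141 RPKM in the -R libraries, 68.8 and 61.9 in +R, with 163 and 129 in R+LE. Both +R libraries lay below all others, and the R+LE libraries overlapped those of -R. G6pdx fell with RANKL (log2 fold change -1.04, SE 0.16, adjusted p = 8.29e-05) and rose when LE was added (1.15, SE 0.16, adjusted p = 0.000221). The fall was just past 2-fold, and it stayed under 2-fold without -R replicate 2 or +R replicate 2 (-0.97 without the latter), where it still passed the test.

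Pgd (chromosome 4, 149149991 to 149166082, minus strand), the second NADPH-yielding dehydrogenase of the arm, was the most abundant of the 7 pathway genes in -R. It stood at 501 and 446 RPKM in -R, at 196 and 165 in +R, with 472 and 355 in R+LE. Here too the +R libraries were separate from the rest, and R+LE reached into the range of -R. Pgd fell by 1.39 on the log2 scale with RANKL (SE 0.19, adjusted p = 2.11e-05) and rose by 1.18 with LE (SE 0.19, adjusted p = 0.000573). Without R+LE replicate 1, which held the higher values, neither Pgd nor G6pdx reached 2-fold in R+LE against +R, and both still passed the test.

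Taldo1 (chromosome 7, 141392160 to 141402976, plus strand) encodes transaldolase, which exchanges carbon units between the pathway and glycolysis. Its values were 440 and 435 RPKM in -R, 300 and 253 in +R, with 596 and 486 in R+LE, so that the groups did not overlap and R+LE was the highest. With RANKL it fell to 0.63-fold (log2 fold change -0.67, SE 0.18, adjusted p = 0.00725), and with LE it rose 1.95-fold (0.96, SE 0.18, adjusted p = 0.0022). That fall no longer passed without -R replicate 1, -R replicate 2 or +R replicate 2.

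Between R+LE and -R none of these 3 genes passed with all 6 libraries. Taldo1 passed as higher without R+LE replicate 2, and under quantile normalization Taldo1 passed as higher and Pgd as lower. The 95% interval of the log2 difference ran from -0.24 to 0.45 for G6pdx, from -0.61 to 0.19 for Pgd and from -0.087 to 0.68 for Taldo1, so changes of up to those sizes remain possible. Comparisons with +R share the same 2 libraries, and a high or low value there enters both the fall with RANKL and the rise with LE.

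**Figure D1:**
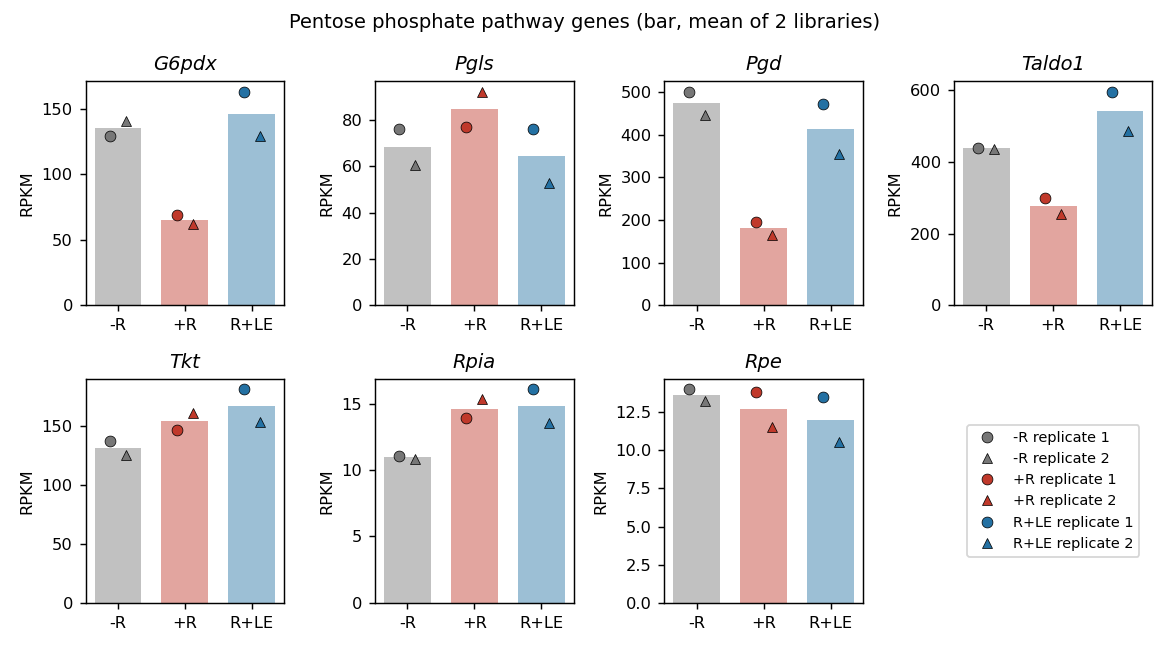
Levels (RPKM, linear axis from 0) of the 7 pentose phosphate genes in -R, +R and R+LE. Bars are means of 2 libraries, circles are replicate 1 and triangles replicate 2. G6pdx, Pgd and Taldo1 are lowest in both +R libraries, at 61.9 to 68.8, 165 to 196 and 253 to 300 RPKM, whereas Pgls, Tkt, Rpia and Rpe show no such dip.

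The remaining pathway genes did not share this course. Pgls, the lactonase between both dehydrogenases, held 76.1 and 60.4 RPKM in -R, 77.0 and 92.2 in +R, with 76.0 and 52.8 in R+LE, and passed in none of the 3 comparisons, although R+LE against +R passed without R+LE replicate 1. Tkt, the transketolase that works beside transaldolase, ranged from 125 RPKM in -R to 181 in R+LE and passed in none, although R+LE against -R passed without R+LE replicate 2. That difference of Tkt also passed under median centring, quantile normalization, scaling per reads on genes or with Rn45s, the ribosomal RNA precursor, left out of the depth. Pgls in R+LE against +R also passed, as lower, under voom. Rpe, an epimerase of pentose phosphates, lay between 10.5 and 14.0 RPKM throughout and passed in none of the 3 comparisons. Rpia, the isomerase that forms ribose 5-phosphate, rose with RANKL from 11.1 and 10.8 to 13.9 and 15.3 RPKM (0.40, SE 0.14, adjusted p = 0.0303), and was at 16.1 and 13.5 in R+LE (0.41 over -R, adjusted p = 0.0345). Both rises of Rpia lost the threshold when any 1 library of the groups compared was left out, except that the rise in R+LE held without R+LE replicate 2.

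In +R against -R, 3 of the 7 pathway genes fell and 1 rose, with a median log2 fold change of -0.10 (0.045 over all genes tested). Of all genes tested, 21.5% fell and 23.9% rose in that comparison. In R+LE against +R, 3 rose and none fell at a median of 0.12 (-0.047 over all genes), beside 5.19% of all genes that rose and 6.86% that fell. In R+LE against -R, 1 rose and none fell, with a median of 0.10 (-0.010 over all genes), where 15.3% of all genes rose and 19% fell. Both medians against -R rested on small values. Without +R replicate 2, that of +R turned to 0.024, and without R+LE replicate 1, that of R+LE turned to -0.065.

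Short sequence windows are shown for G6pdx and Taldo1, which fell with RANKL and rose with LE. Pgd moved likewise and had matches to both CCAAT and TGACNNNGC, but its sequence is not shown. All windows were read from the RefSeq promoter table of GRCm38.p6. It held a window of 250 bases before and 50 after a start site for 32 of the 33 genes. Capitals mark a match to CCAAT, read on the other strand, in Taldo1. In G6pdx they mark a match to TGACNNNGC, also read on the other strand.
Taldo1: gcttcatttagctttgctttgATTGGccag
G6pdx: aggcgggtcaGCTCAGTCAaagcacacgcc
The Taldo1 window is chr7:141392130-141392159 (plus strand) and ends at the base before the start site. The G6pdx window is chrX:74428918-74428947 (minus strand) and lies within the first exon of the counted transcript, which begins 281 bases upstream of the RefSeq start site used. CCAAT occurred on either strand in the windows of 41.1% of all 27025 genes and of 13 of the 32. TGACNNNGC, a form of the antioxidant response element, occurred in those of 14.0% of all genes and of 5 of the 32. ACGTG, part of the element that HIF binds, occurred in those of 21.8% of all genes and of 17 of the 32. The 3 motifs were chosen with the values and sequences known, and a match is a description of letters only.

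Glucose enters by Slc2a1 and Slc2a3, the transporters GLUT1 and GLUT3. Slc2a3 (chromosome 6, 122727809 to 122742745, minus strand) was at 5.65 and 6.67 RPKM in -R, 2.12 and 1.75 in +R, with 3.86 and 3.26 in R+LE. The groups did not overlap, and R+LE lay between the others. Slc2a3 fell with RANKL (-1.45, SE 0.16, adjusted p = 2.66e-06), rose with LE (0.74, SE 0.16, adjusted p = 0.00598) and stayed below -R (-0.71, adjusted p = 0.00275), although the last value no longer passed without -R replicate 2. Slc2a1, the more abundant transporter, held 20.7 and 19.8 RPKM in -R, 30.3 and 18.5 in +R, with 38.5 and 32.6 in R+LE. Its +R libraries spanned those of -R, and it passed only in R+LE against -R (0.80, SE 0.19, adjusted p = 0.00442), and not without -R replicate 1 or -R replicate 2. The value against +R was 0.57 (adjusted p = 0.0676). It passed under median centring, quantile normalization, voom, a replicate block, scaling per reads on genes or a minimum mean of 1 RPKM. With either +R library left out it was 0.22 or 0.92, and the value with RANKL was -0.13 or 0.58. Slc2a1 made up 78.5% and 74.8% of the sum of both transporters in -R, 93.5% and 91.3% in +R, and 90.9% in each R+LE library.

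Hexokinases phosphorylate glucose on entry, and the strongest fall among the 24 glycolysis genes with RANKL was that of Hk3. Hk3 (chromosome 13, 55005985 to 55020819, minus strand) stood at 67.7 and 61.5 RPKM in -R, 18.8 and 16.3 in +R, with 28.5 and 24.5 in R+LE, again without overlap. It fell by 1.85 on the log2 scale with RANKL (SE 0.15, adjusted p = 6.93e-08), a level 3.62-fold lower, and rose with LE by 0.58 (SE 0.15, adjusted p = 0.0157). The rise lost the threshold without +R replicate 2 or R+LE replicate 1. Against -R the level in R+LE remained lower (-1.27, adjusted p = 6.99e-06). The summed neutrophil markers given above moved with the fall of Hk3, with S100a8 at 10.6 and 10.5 RPKM in -R and at most 2.46 elsewhere, S100a9 at 5.94 and 4.50 in -R and at 0 elsewhere, and the other 5 below 0.5 throughout. Their part in the fall was not tested.

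Hk2, the inducible hexokinase, went down with RANKL and showed no rise with LE. It was at 9.22 and 10.2 RPKM in -R, 6.71 and 5.43 in +R, with 4.38 and 4.74 in R+LE. The change was -0.64 with RANKL (SE 0.15, adjusted p = 0.00224), -0.37 with LE (adjusted p = 0.13) and -1.01 from -R to R+LE (adjusted p = 6.87e-05). Hk1, the widely expressed form, ranged only from 34.3 to 39.4 RPKM and passed in no comparison. The leading hexokinase transcript differed between the groups. Of the summed level of the 3 genes, Hk3 held 58.9% and 58.0% without RANKL, 29% and 27.7% with RANKL, and 42.4% and 38.5% with LE. Hk1 held 33.1% and 32.4% without RANKL, 60.7% and 63.1% with RANKL, and 51.1% and 54.0% with LE.

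The next committed step of glycolysis is phosphofructokinase. Its 3 subunit genes rose slightly with RANKL: Pfkm by 0.54 (SE 0.16, adjusted p = 0.0104), Pfkl by 0.44 (SE 0.16, adjusted p = 0.034) and Pfkp by 0.40 (SE 0.15, adjusted p = 0.0434). None of these rises held without +R replicate 1. Those of Pfkm and Pfkp also no longer passed without -R replicate 1, and those of Pfkl and Pfkp without -R replicate 2. Pfkl held 27.5 and 20.6 RPKM in -R and between 30.0 and 35.4 in the other libraries, and with Pfkm it was also above -R in R+LE (adjusted p = 0.0361 and 0.0345). Both of these no longer passed without -R replicate 2 or R+LE replicate 1, and that of Pfkm also without -R replicate 1. Pfkp shares 748 bases of exon with Pitrm1 on the opposite strand, and reads were counted without strand.

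Pfkfb3 and Pfkfb4 make fructose 2,6-bisphosphate, the activator of phosphofructokinase, and both fell with RANKL. Pfkfb3 was at 6.21 and 6.42 RPKM in -R and between 2.11 and 2.49 in the other 4 libraries. Pfkfb4 was at 6.84 and 6.33 in -R and between 2.82 and 3.02 elsewhere. Neither group with RANKL overlapped -R. The falls were -1.29 (SE 0.15, adjusted p = 4.77e-06) and -1.01 (SE 0.14, adjusted p = 3.49e-05), whereas with LE the changes were 0.050 (adjusted p = 0.904) and -0.061 (adjusted p = 0.871). In R+LE both stayed below -R, by -1.24 and -1.07 (adjusted p = 1.14e-05 and 3.09e-05). With a pseudocount of 1, Pfkfb4 and Hk2 no longer reached 2-fold in R+LE against -R.

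The lower part of the chain holds the most abundant transcripts of the set. Pkm, the pyruvate kinase, Aldoa, the main aldolase, Gapdh and Eno1 ranked 18, 21, 27 and 87 among all genes by mean level in -R. Gapdh, which is often used as a reference gene, was at 893 and 859 RPKM in -R, 1126 and 976 in +R, with 1337 and 1015 in R+LE, and passed in no comparison. Its log2 fold change was 0.26 with RANKL (95% interval -0.18 to 0.70) and turned to -0.17 under quantile normalization. Of the 9 glycolysis genes over 100 RPKM, only Tpi1 passed with RANKL (0.52, SE 0.19, adjusted p = 0.034), from 273 and 257 to 396 and 364 RPKM, and it no longer passed without any 1 of those 4 libraries. None of the 9 passed with LE, although Gpi1, Aldoa, Gapdh, Pgk1, Eno1, Pkm and Ldha passed as higher under quantile normalization. In R+LE against -R, only Pgk1, the phosphoglycerate kinase, passed, from 282 and 300 to 517 and 425 RPKM (0.69, SE 0.18, adjusted p = 0.00867), and not without either -R replicate. That count rested on R+LE replicate 2, since without it Gpi1, Aldoa, Tpi1, Gapdh, Eno1, Pkm and Ldha also passed in R+LE against -R, and Pkm against +R. With RANKL, Pgk1 and Ldha passed once either R+LE library was left out of the shared fit. Both genes also passed with RANKL in a fit of only the compared groups or scaled per reads on genes, and Pgk1 under median centring, quantile normalization or voom. The processing mattered in R+LE against -R too. Tpi1 and Ldha passed there under median centring, quantile normalization, voom, a replicate block or scaling per reads on genes. Gpi1 passed under the first 2 and the last of these. The others of the 9 are Gpi1, Aldoa, Gapdh, Pgam1, Eno1, Pkm and Ldha.

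Near copies bear on several of these. Other annotated genes with at least 95% identity over 200 bases or more were found for 11 of the 33 genes among GENCODE transcripts, with 78 for Gapdh (75 of them pseudogenes) and 4 for Pgk1. Ldhb, a gene of low level, has 1, the pseudogene Gm5514, at 98.0% identity over 1002 bases. Those of Pfkp and Rpe were exons shared with a neighbouring gene. How the aligner divided such reads is not given in the sources used here. The table also lists Eno1b at the locus of Eno1, at 642 to 896 RPKM against 532 to 743 for Eno1, so the level of enolase is uncertain. G6pdx shares 418 exon bases with Ikbkg on the other strand. Hk3, Pgd and Taldo1 have no such copy.

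Among the minor isoenzymes, Aldoc, the brain-type aldolase, rose with RANKL from 3.85 and 4.09 to 10.7 and 8.55 RPKM (1.17, SE 0.15, adjusted p = 1.6e-05) and was at 13.1 and 10.7 in R+LE. It stayed below 1% of the sum of Aldoa and Aldoc in each group mean. The value with LE was 0.30 (adjusted p = 0.274), and R+LE was above -R by 1.47 (adjusted p = 2.65e-06). Eno2, the neuronal enolase, lay between 0.26 and 1.07 RPKM and passed in no comparison.

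Lactate dehydrogenase turns pyruvate into lactate, and only its H subunit, Ldhb, fell with LE among the 24 glycolysis genes followed. Ldhb (chromosome 6, 142490249 to 142507957, minus strand) was at 0.841 and 1.42 RPKM in -R, 5.56 and 4.58 in +R, with 2.08 and 1.47 in R+LE. It was high in both +R libraries alone. Ldhb rose with RANKL by 1.79 (SE 0.20, adjusted p = 3.63e-06) and changed with LE by -1.3 (SE 0.20, adjusted p = 0.000524), and R+LE against -R did not pass (0.49, 95% interval 0.059 to 0.93, adjusted p = 0.0748), although it did without -R replicate 2, R+LE replicate 2 or either +R library. Ldha, the M subunit, held 452 to 741 RPKM and passed in no comparison, so Ldhb made up at most 0.86% of both.

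Lactate leaves the cell through monocarboxylate transporters. Slc16a1 (MCT1) rose with RANKL from 6.92 and 7.05 to 15.9 and 12.2 RPKM (0.95, SE 0.17, adjusted p = 0.000267), and stood at 16.4 and 12 in R+LE (0.96 over -R, adjusted p = 0.000353). The difference between +R and R+LE was 0.012 (adjusted p = 0.981). Slc16a3 (MCT4), the more abundant exporter, was at 42.2 and 38.2 RPKM in -R, 55.4 and 37.6 in +R, with 62.4 and 53.3 in R+LE, and passed only in R+LE against -R (0.52, SE 0.18, adjusted p = 0.0343), and not without -R replicate 1, -R replicate 2 or R+LE replicate 1.

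**Figure D2:**
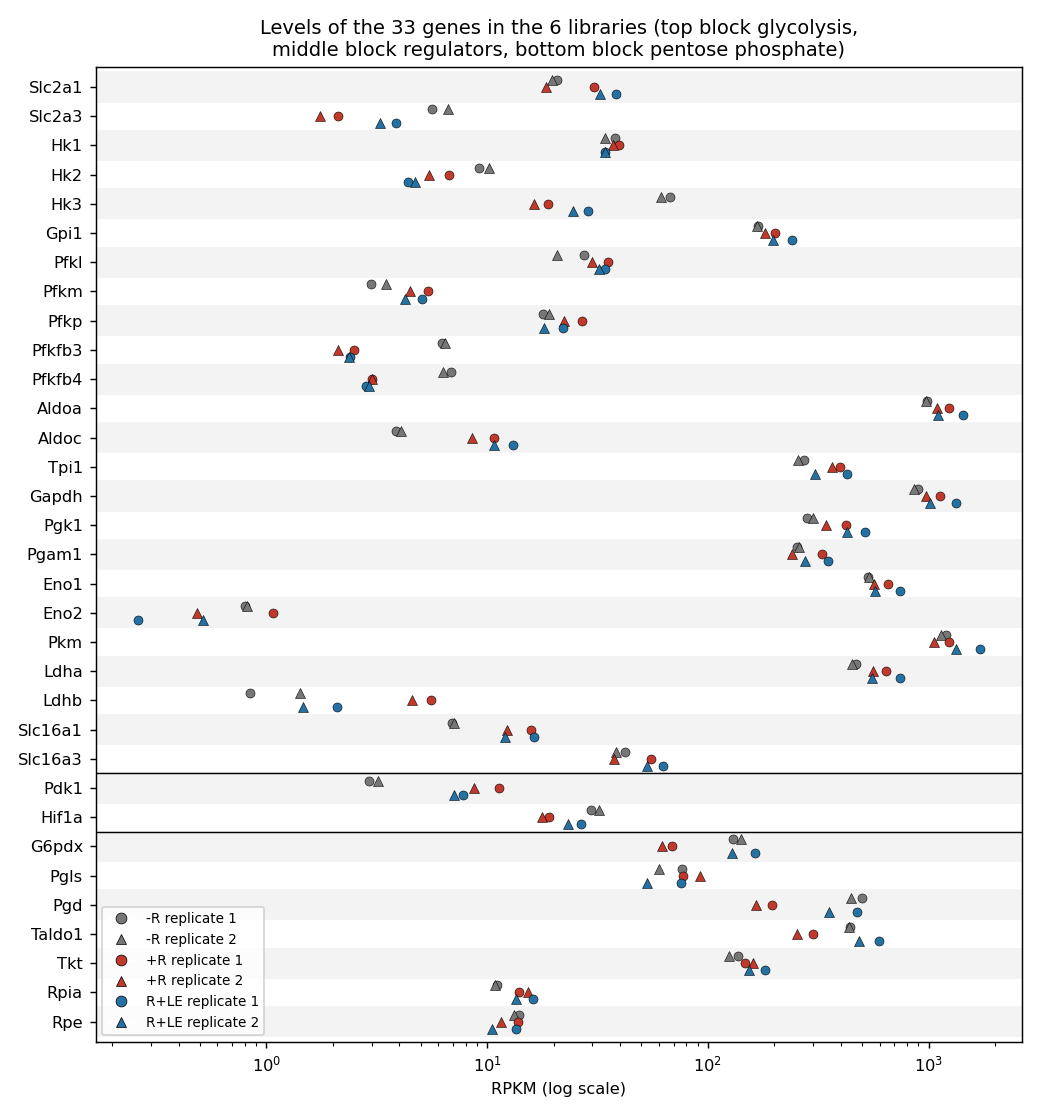
Level of each of the 33 genes (RPKM, log axis) in the 6 libraries, coloured by group, with circles for replicate 1 and triangles for replicate 2. The abundant glycolysis genes, such as Aldoa at 978 to 1434 RPKM, lie close across groups on this axis, though not all overlap. Both -R libraries of Aldoa (981 and 978) lie below all others, as do those of Pgk1 (282 and 300, against 425 and 517 in R+LE). Hk3, Pfkfb3, Pfkfb4 and Slc2a3 lie to the right in -R and Aldoc, Slc16a1 and Pdk1 to the left.

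Over the 24 glycolysis genes, 7 rose and 5 fell with RANKL, at a median log2 fold change of 0.21. Of all genes tested, 23.9% rose and 21.5% fell there, at a median of 0.045. The 2-fold threshold was reached by Aldoc and Ldhb upward and by Slc2a3, Hk3, Pfkfb3 and Pfkfb4 downward, beside 6.58% of all genes upward and 8.92% downward. Pfkfb4 stayed under 2-fold without -R replicate 1 or with a pseudocount of 1, and still passed the test. With LE, 2 rose (Slc2a3 and Hk3) and 1 fell (Ldhb), at a median of 0.10. Over all genes 5.19% rose and 6.86% fell with LE, at a median of -0.047. At 2-fold, G6pdx and Pgd of the pentose phosphate pathway were called upward and Ldhb downward, beside 1.46% and 1.78% of all genes. Between R+LE and -R, 7 glycolysis genes rose and 5 fell, at a median of 0.37, beside the 15.3% and 19% of all genes. Aldoc was called upward and Hk2, Hk3, Pfkfb3 and Pfkfb4 downward, beside 3.92% and 6.36% of all genes, and Hk2 was under 2-fold without -R replicate 2 or R+LE replicate 1. The glycolysis genes that did not pass ranged from -0.072 to 0.39 with RANKL and from -0.50 to 0.57 with LE.

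**Figure D3:**
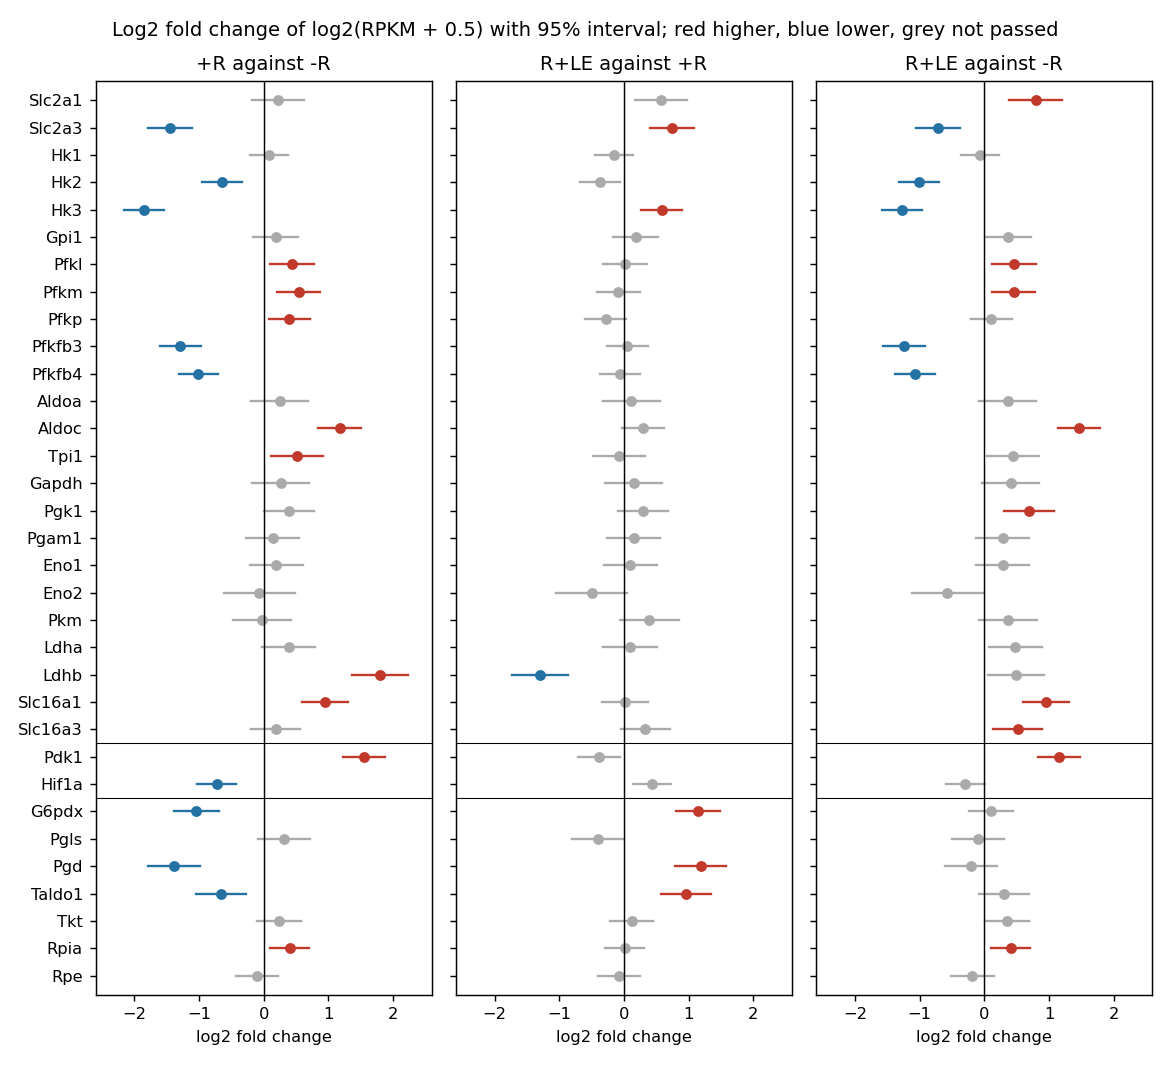
Log2 fold change of log2(RPKM + 0.5) for each gene in the 3 comparisons, with 95% intervals from limma. Red and blue mark genes that rose or fell at an adjusted p below 0.05, and grey those that did not pass. The changes of G6pdx (-1.04 and 1.15), Pgd (-1.39 and 1.18) and Taldo1 (-0.67 and 0.96) point down with RANKL and up with LE, and the left and middle panels share the +R libraries.

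Both regulators moved with RANKL. Pdk1, the kinase that inhibits pyruvate dehydrogenase, rose from 2.92 and 3.20 RPKM in -R to 11.3 and 8.68 in +R (1.55, SE 0.15, adjusted p = 8.08e-07), and was at 7.77 and 7.09 in R+LE. R+LE was below both +R libraries, though the difference did not pass (-0.39, adjusted p = 0.123), and above -R (1.16, adjusted p = 2.76e-05). Hif1a, the oxygen-regulated subunit of the factor HIF, whose targets include many glycolysis genes, fell with RANKL from 29.5 and 32.1 to 19.1 and 17.6 RPKM (-0.73, SE 0.14, adjusted p = 0.000599). Its level was 26.8 and 23.3 in R+LE, between the other groups. The log2 fold change was 0.43 against +R (adjusted p = 0.059) and -0.29 against -R (adjusted p = 0.122). That against +R passed under median centring, quantile normalization, voom, a replicate block or scaling per reads on genes, and was 0.53 without R+LE replicate 2.

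Glycolysis and the pentose phosphate branch were then compared within each library, where the scaling of the library drops out. The 7 pentose phosphate genes summed to 24.6% and 23.8% of the 24 glycolysis genes in -R, 12.5% and 13.6% in +R, with 19.5% and 19.95% in R+LE. The groups did not overlap, and R+LE lay between the others. The glycolysis sum itself was 5315 and 5183 RPKM in -R, 6511 and 5598 in +R, with 7777 and 6013 in R+LE, and that of the pentose phosphate genes 1309 and 1231, 816 and 760, and 1518 and 1200. G6pdx, Pgd and Taldo1 held most of the pentose phosphate sum, and its fall with RANKL was theirs. From -R to +R the means went from 135 to 65.3, 474 to 181 and 437 to 277 RPKM. Pgls went from 68.3 to 84.6, Tkt from 131 to 154, Rpia from 11.0 to 14.6 and Rpe from 13.6 to 12.7. Replicates that differed in both sums were close in their ratio, with means of 24.2% ± 0.61 for -R, 13.1% ± 0.74 for +R and 19.7% ± 0.31 for R+LE (SD, n = 2). The ratios are given as a description, and no test of them was run.

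Ratios of single genes describe the same levels in another form. For G6pdx and Pgd, R+LE overlapped -R in level but lay below -R in the ratio. The genes they were divided by had higher means in R+LE than in -R, though neither difference passed. Gpi1 was at 219 RPKM against 168, and Gapdh at 1176 against 876. G6pdx and Gpi1, the isomerase of glycolysis, both use glucose 6-phosphate, and G6pdx was at 76.4% and 84.1% of Gpi1 in -R, 34.0% in each +R library, with 67.9% and 65.4% in R+LE. Pgd was at 56.2% and 52.0% of Gapdh in -R, 17.4% and 16.9% in +R, with 35.3% and 34.9% in R+LE. Hk3 was at 178% and 179% of Hk1 in -R, 47.7% and 43.9% in +R, with 83.1% and 71.3% in R+LE.

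**Figure D4:**
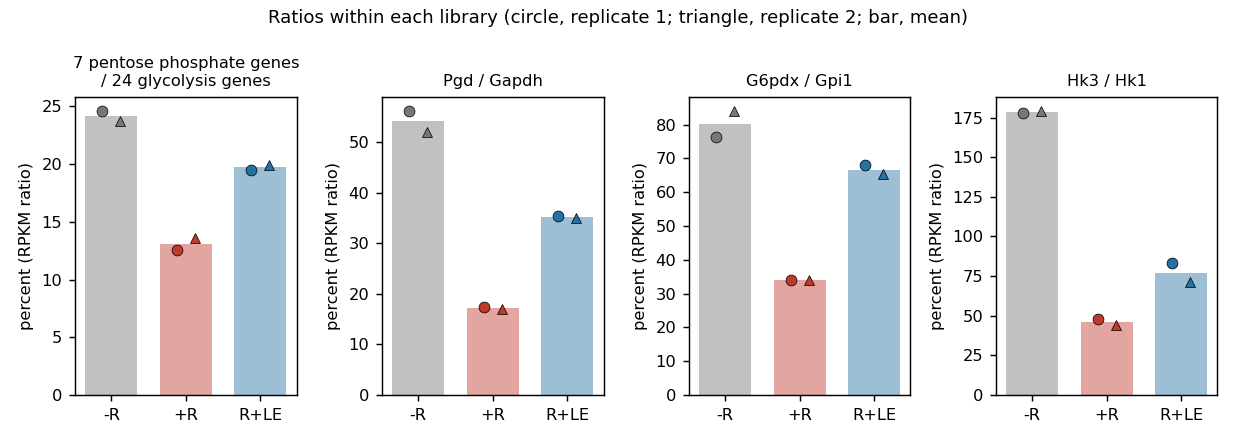
Ratios of RPKM within each library, in percent on axes from 0, for the sum of the pentose phosphate genes over that of the glycolysis genes, Pgd over Gapdh, G6pdx over Gpi1 and Hk3 over Hk1. Bars are means of 2 libraries, with circles for replicate 1 and triangles for replicate 2. In each panel -R is highest, +R lowest and R+LE between, as with 24.6% and 23.8%, 12.5% and 13.6%, and 19.5% and 19.95% in the first.

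Further genes of these pathways were counted in lists. The counts stand beside 23.9% of all genes that rose and 21.5% that fell with RANKL, at a median of 0.045, and beside 5.19% and 6.86% with LE, at a median of -0.047. Of 9 other pentose phosphate genes tested, 2 fell with RANKL and 1 rose with LE. H6pd, which carries out the first steps of the pathway inside the endoplasmic reticulum, was at 20.1 and 18.9 RPKM in -R, 8.91 and 7.94 in +R, with 16.1 and 16.3 in R+LE (-1.17, adjusted p = 4.52e-06, then 0.90, adjusted p = 0.000348). Idnk, a gluconate kinase, also fell with RANKL (-0.69, adjusted p = 0.00061). The median of the list was -0.053 with RANKL and 0.074 with LE.

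Among 11 tested enzymes that make NADPH or its precursor elsewhere, 6 rose and 1 fell with RANKL at a median of 0.87, and 1 rose and 3 fell with LE at a median of -0.24. Me1, the cytosolic malic enzyme, also fell with RANKL and rose with LE, with 11.7 and 11.9 RPKM in -R, 4.85 and 4.39 in +R, with 11.7 and 10.3 in R+LE (-1.27, adjusted p = 2.33e-06, then 1.17, adjusted p = 3.94e-05). The NAD kinase Nadk and its mitochondrial relative Nadk2 rose with RANKL (1.41 and 1.22, adjusted p = 2.7e-06 and 9.69e-06). With LE, Idh2, the mitochondrial isocitrate dehydrogenase, fell (-0.61, adjusted p = 0.0197), as did Aldh1l1, a folate dehydrogenase (-1.20, adjusted p = 0.000409).

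A list of 13 tested genes held the carriers of pyruvate into mitochondria, the subunits of pyruvate dehydrogenase, its kinases and phosphatases, and Pcx, the pyruvate carboxylase. Of these, 11 rose and none fell with RANKL, at a median of 0.78, and 7 fell and none rose with LE, at a median of -0.54. Those that rose include the inhibiting kinase Pdk3 and Pcx, and those that fell with LE include the kinase Pdk2. Pdhb, a subunit of pyruvate dehydrogenase, was at 28.8 and 30.2 RPKM in -R, 82.7 and 74.7 in +R, with 48.6 and 43.9 in R+LE (1.40, adjusted p = 1.13e-06, then -0.76, adjusted p = 0.00212). Its partner Pdha1 rose by 1.27 (adjusted p = 1.38e-05) and fell with LE (-0.86, adjusted p = 0.00248), and Dlat, another subunit of the complex, fell with LE (-0.70, adjusted p = 0.00294). The summed osteoclast markers given above moved in the same directions, and their part was not tested.

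Of 17 other glycolysis genes tested, 4 rose and 4 fell with RANKL, and 2 rose and 4 fell with LE, at medians of 0.099 and 0.017. Pfkfb2, a relative of Pfkfb3 and Pfkfb4, went the other way, from 2.49 and 3.96 RPKM without RANKL to 13.6 and 13.2 with RANKL, with 7.44 and 6.35 after LE (1.93, adjusted p = 3.23e-07, then -0.91, adjusted p = 0.00257). Pgm2l1, which makes glucose 1,6-bisphosphate, fell with RANKL (-1.70, adjusted p = 9.39e-07). Slc16a7, a further monocarboxylate transporter, fell with LE (-0.99, adjusted p = 0.00068).

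Of 19 tested targets of HIF outside glycolysis, 7 rose and 3 fell with RANKL at a median of 0.30, and 1 rose and 3 fell with LE at a median of -0.096. They did not move as 1 group. Plin2, a coat protein of lipid droplets, fell from 836 and 805 to 102 and 92.1 RPKM (-3.07, adjusted p = 1.7e-09) and stood at 207 and 158 in R+LE, whereas Bhlhe40, a transcription factor, rose from 5.81 and 5.88 to 51.0 and 41.8 RPKM (2.88, adjusted p = 3.91e-10) and was at 19.1 and 17.2 in R+LE. Mif, a secreted cytokine, rose with RANKL (1.32, adjusted p = 1.96e-05).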

How the data were processed

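Total RNA of 6 libraries was sequenced, and the labels gave their groups. The authors counted reads on exons with HOMER on mm10, without regard to strand and with 1 transcript kept per gene, and deposited RPKM under column titles that say FPKM. The paper's methods name TopHat as aligner, and the submitters' processing notes name HISAT2 and DESeq2. For this report, 26 symbols turned into dates were restored. Whole reads were recovered within 0.1 read for 100% of the low values checked, which gave the depth. The 11595 genes whose mean reached 0.5 RPKM, all 33 members among them, were fitted as log2(RPKM + 0.5) with limma 3.58.1 in R 4.3.3, all 6 libraries in 1 fit with a variance trend and Benjamini-Hochberg adjustment over all genes. On simulated data the fit was tested with known changes. Members that passed are named, with at most 3 genes of each further list and comparison. Members and lists were chosen with earlier results of these data known. Near copies were sought in GENCODE transcripts with blastn 2.17.0. Replicates differed by more than counting noise. Other pseudocounts, filters and scalings, voom, a replicate block, a fit of only the compared groups and leaving out each library were tried as alternatives.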

Additional observations from a re-analysis of the deposited data

How the results depend on the processing

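Of the 38 member changes that passed, none changed sign under any alternative and 21 passed under all, and 17 lost the threshold under at least 1. Of the 61 that did not pass, 26 changed sign and 29 passed under at least 1 alternative. Without the filter on low values, the members that passed went from 9 to 4 (higher) with RANKL, from 5 to 2 (higher) and 1 to 0 (lower, also at 2-fold) with LE, and from 9 to 3 (higher) in R+LE against -R. Quantile normalization gave 14 higher with LE. In R+LE against -R the number higher was 15 with median centring, 16 with quantile normalization, and 14 both with Rn45s, the ribosomal RNA precursor, left out of the depth and per reads on genes, the last 2 chosen after seeing the data. With voom on recovered reads, 3 members were lower with LE. A pseudocount of 1 left 2 called lower in R+LE against -R. Without the variance trend, Pfkl and Pfkp with RANKL and Pfkl, Slc16a3 and Rpia in R+LE against -R no longer passed. The causes were not tested. Gapdh turned to -0.17 with RANKL under quantile normalization.

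With each library left out, the number higher ranged from 4 to 11 with RANKL and from 4 to 19 in R+LE against -R. With LE, 1 to 2 members passed lower and 0 to 3 were called higher, 0 being without R+LE replicate 1. With RANKL the glycolysis median ranged from 0.10 to 0.36 and that of the pentose phosphate genes from -0.23 to 0.024, and the latter ranged from -0.065 to 0.27 in R+LE against -R. With LE, Pfkfb3 ranged from -0.048 to 0.15, Slc16a1 from -0.20 to 0.23 and Gapdh from -0.046 to 0.35, and G6pdx ranged from -0.065 to 0.27 in R+LE against -R. Slc16a1 was at -0.17 without +R replicate 2.

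The labels do not say what a replicate number marks. Differences between replicates correlated at -0.046, 0.11 and 0.25 across genes for the 3 pairs of groups, so the numbers were not taken to pair the libraries. With the replicate block, 7 members passed higher with LE against 5, and all members that passed still did. At this depth 3 reads on 1 kb of transcript are 0.0861 to 0.102 RPKM, and the lowest library values of Eno2 and Ldhb rest on 20 and 32 reads.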
